A study of Bos taurus and Bos indicus x Bos taurus with 938 samples.

Results

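Regions numbered V1 to V302830 were scored as open or closed in single bovine blastomeres (398 from fertilized and 421 from cloned embryos), and 698 regions of the main part of the numbering (V1 to V274100) were open in at least 30% of all blastomeres. These regions were selected on the measured calls themselves, so how often they are open over all blastomeres describes the choice and supports nothing further. They made up 0.230% of the regions and held 2.59% of all open calls. A further 2152 regions above V274100 were open as often and are not among them.

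The assay was ATAC-seq, in which a transposase inserts sequencing adapters into accessible DNA, carried out on individual blastomeres of preimplantation cattle embryos, with the embryo of origin retained for each library. Embryos came from in vitro fertilization (IVF, organism label Bos indicus x Bos taurus) or from cloning by somatic cell nuclear transfer (SCNT, organism label Bos taurus), where a body cell's nucleus replaces the chromosomes of an oocyte. Oocytes for both came from abattoir ovaries and were matured in vitro, and no source used here names the donor cells of the SCNT embryos. Type of embryo, organism label and title prefix cannot be told apart: prefixes 15243 and 15244 hold only SCNT libraries, 15286 and 15287 only IVF libraries. The groups compared were IVF 2-cell (67 embryos), IVF 4-cell (22), IVF 8-cell (14), SCNT 2-cell (43), SCNT 4-cell (25) and SCNT 8-cell (21). Most other stages, from 1 to 16 cells, had few embryos and were only described.

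Open chromatin in early embryos is built up during cleavage, when the embryonic genome is first transcribed; in cattle the major wave of this activation falls at about the 8-cell stage. A region that is open in most cells is often a constitutive promoter or a repeated sequence to which many reads align, whereas regions of cell-type enhancers are open in few cells. In single cells a call also depends on how many fragments were recovered, since a diploid cell offers only a few copies of each locus. The regions carry running numbers without coordinates or genes, so no gene, sequence or promoter could be assigned to any of them here.

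Depth had a median of 8221 open calls per blastomere and reached 129163, with 4.76% of blastomeres under 1000 calls, and it was higher in IVF (median 10770) than in SCNT blastomeres (median 6465). IVF 8-cell blastomeres had a median of 13374 calls and SCNT 2-cell blastomeres 3484. The link of table columns to labelled libraries was inferred from matching number series, and 12.7% of the 938 labelled libraries have no column. No pair of blastomeres shared more than 0.390 of its open regions (Jaccard index), against a median of 0.0660. The numbering was cut into 29 blocks at points where the coverage of neighbouring bins correlated at under 0.3 over blastomeres. The low r at the cuts (at most 0.282) follows from that rule. Away from the cuts the median r was 0.733. In 25% of the blastomeres deep enough to judge, at least 1 block was nearly without calls. This held for 62.7% of IVF 2-cell and 25% of IVF 8-cell blastomeres (22 of 88). It held for 5% of SCNT 2-cell (2 of 40) and 0% of SCNT 8-cell blastomeres. The count of 0 would allow up to 2.56% if blastomeres were independent. Several came from the same embryo, so 2.56% is too tight a limit, and none was computed per embryo.

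Members were open in 30.0% to 99.9% of blastomeres, with a median of 36%. In the band just above the threshold, 299 were open in under 35% of blastomeres, and 10 were open in 90% or more. Just inside the threshold, 3 regions were open in 30.04% of blastomeres, and just outside it 12 were open in 29.91%. A blastomere had between 2.29% and 90.4% of the 698 members open, with a median of 42.8%.

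The most widely open member was V109812 (block 12), open in 99.9% of blastomeres. V227511 (block 26) and V17424 (block 2) were each open in 98.3% and V161593 (block 18) in 97.3%. These 4 members were also open in most of the shallow blastomeres, those with under 2000 calls: V109812 in 100%, V17424 in 95.4%, V161593 in 92% and V227511 in 90.8%. Next came V227519 (open in 94.9% of all blastomeres), V227510 (93.3%), V227514 (91.8%) and V227516 (91.7%), all close to V227511 in the numbering, followed by V137365 (91%) and V137363 (90.2%). These 6 were less open in shallow blastomeres, from 55.2% for V227514 to 71.3% for V227519. The remainder of the 20 most open members were V11442 (87.7%), V227517 (86.9%), V263496 and V95719 (85.2% each), V248451 (83.4%), V246254 (82.2%), V246240 (82.1%), V95706 (81.4%), V246234 (80.5%) and V109999 (80.3%). Of the 20, 13 belong to dense stretches of members described below.

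The members differed in a pair of measures that the selection did not set. The first was the slope of openness with depth, measured against the calls outside commonly open regions (complementary log-log scale; a slope of 1 means that openness scales with the calls, a slope of 0 that it does not). The second was persistence, the open calls of a member in blastomeres that lack its block, divided by the calls expected at their depth. With limits set after these values were seen, 24.9% of the members were depth-independent (slope under 0.3), 40.3% were block-following (281 members, persistence under 0.3), 32.8% were block-persistent (persistence of 0.7 or above) and 2.01% (14 members) were intermediate.

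**Figure D1:**
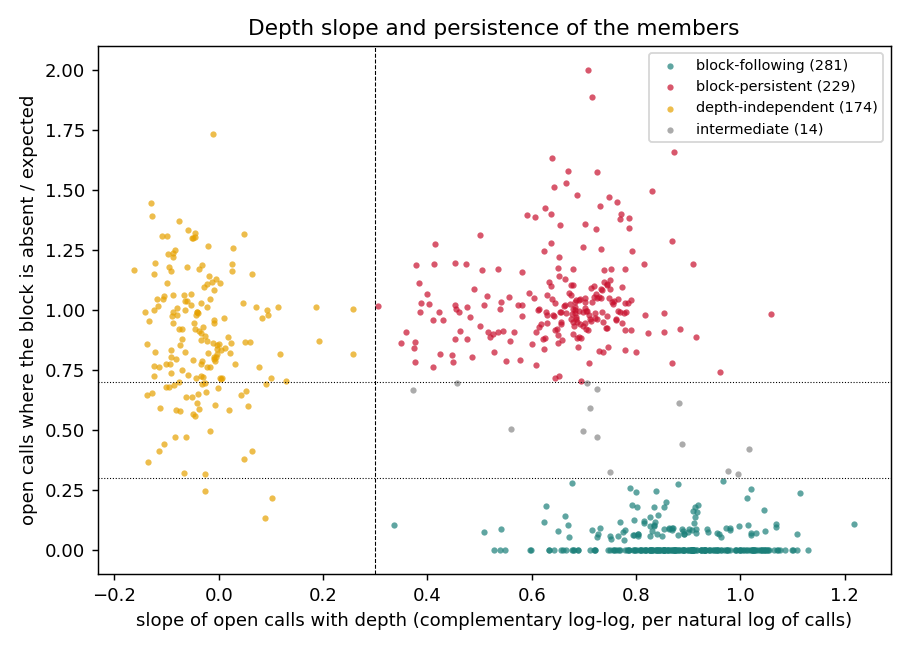
Each point is 1 of the 698 members, plotted by its slope of openness with depth (x axis) and by its persistence where its block is absent (y axis, observed over expected open calls); dashed and dotted lines are the class limits. The depth-independent members form a separate cloud near slope 0, and the 281 block-following members lie at the bottom.

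The 281 block-following members behaved like the surrounding regions of their block. In blastomeres without the block they were open in 1.87% of 7370 cases, a case being 1 member in 1 blastomere, against 48.5% expected. The limit on persistence that defined the group fixed this gap, so the values only describe the group. Their median slope was 0.88, and they were open in 3.67% of cases in blastomeres under 2000 calls and in 70.5% at 20000 or more. Members of this group occurred in all 29 blocks.

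The block-persistent members were open whether or not the rest of their block was covered. In blastomeres without the block they were open in 71.9% of 5865 cases, against 69.9% expected. Closeness to expectation was likewise set by the limit on persistence that defined the group. They also depended on depth, with a median slope of 0.68 and 13.7% open in shallow against 81.9% in deep blastomeres. Of these members, 56.8% had another member as direct neighbour in the numbering, against 11% of the block-following and 8.62% of the depth-independent members. The split was also made in IVF 2-cell blastomeres alone. The 276 members with low persistence there had a persistence of 0.0342 in all other blastomeres, and those with high persistence there had 0.979. Members, blocks, slopes and expected calls came from all blastomeres, so this reading is not independent. Regions just short of the selection, open in 24.4% to 29.9% of blastomeres, were open in 3.66% of cases where their block was absent and in 33.4% where it was present.

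The depth-independent members were open in about the same share of blastomeres at any depth: 36.6% under 2000 calls and 35.8% at 20000 or more, with a median slope of -0.04. A flat response to depth is what the limit on the slope selected, so these values describe the group. The slope was also near 0 within single groups, with medians from -0.19 in SCNT 8-cell to 0.15 in IVF 8-cell blastomeres. Among 784 regions just short of the selection, 8 (1.02%) had a slope under 0.3, and among the 2152 commonly open regions above V274100, 61 (2.83%), against 24.9% of the members. The selection favours such regions only through their total openness, and whether that accounts for the difference was not tested.

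**Figure D2:**
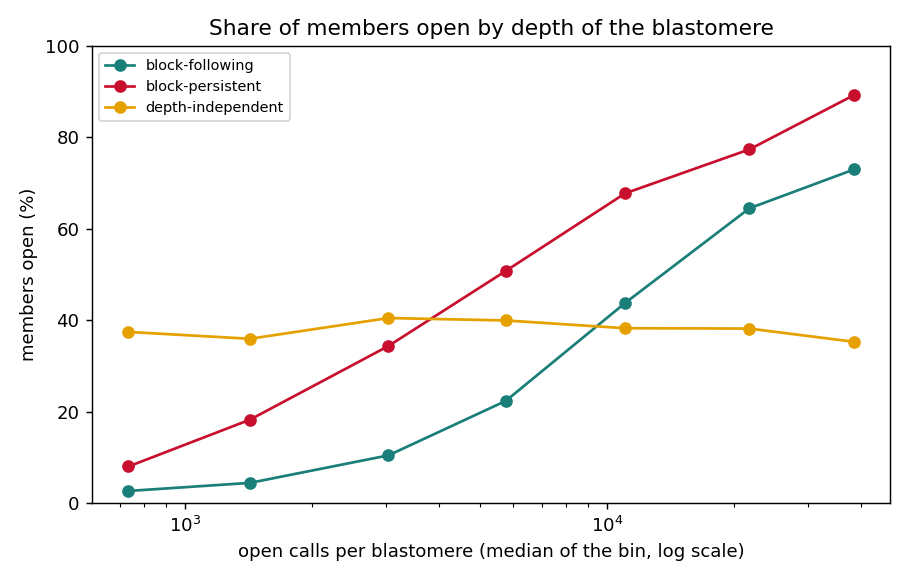
Mean share of members open (y axis, percent) in 7 bins of blastomeres by number of open calls (x axis, log scale), for 3 groups of members. The depth-independent line, of members chosen for a flat slope, stays between 35.3% and 40.5%. Block-following members climb from 2.69% to 73% and block-persistent members from 8.04% to 89.3%.

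Depth-independent members opened together. After removal of each member's own response to depth, the median correlation between 2 of them over all blastomeres was 0.412, and it was the same within a block (0.411) as between blocks (0.412). For block-following members the medians were 0.191 within and 0.0814 between blocks, and for block-persistent members 0.250 and 0.0987. Between depth-independent and other members the medians were near 0, at -0.0161 with block-following and -0.000494 with block-persistent members. These correlations describe calls that share libraries and depth. Within the group, 150 members correlated with the mean of the others at 0.545 to 0.708, while the other 24 lay between -0.0722 and 0.369. The 24 include the most open members V109812, V17424, V227511 and V161593; the 150 were open in 30.3% to 46.3% of blastomeres each. No member of the group lay in between, from 0.4 to 0.5.

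The 150 co-opening members were nearly all open in some blastomeres and nearly all closed in others. In 27.8% of blastomeres under 10% of them were open and in 9.89% of blastomeres 90% or more, with 62.3% of blastomeres in between. In IVF 2-cell embryos a mean of 52.4% ± 25.2 (SD, n = 66 embryos) were open, with a range from 7.00% to 99.3%. In IVF 8-cell embryos the mean was 13.9% ± 11.8 (SD, n = 14), ranging from 3.17% to 36.9%. SCNT embryos ranged from 0% to 96.7% at 2 cells and from 1.75% to 85.5% at 8 cells, so the groups overlapped widely. Sister blastomeres differed as well. The pooled SD within an embryo was 24.4 percentage points in IVF 2-cell and 11.1 in IVF 8-cell embryos. In SCNT embryos it was 29.7 at 2 cells and 21.9 at 8 cells. The median range within an embryo was 14.0 percentage points in IVF 2-cell, 17.3 in IVF 8-cell and 53.3 in SCNT 8-cell embryos. A range grows with the number of blastomeres, so ranges of different stages cannot be compared. The single SCNT 1-cell library, with 1433 calls, had 95.3% of them open, beside 4.27% of the block-following and 5.68% of the block-persistent members.

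**Figure D3:**
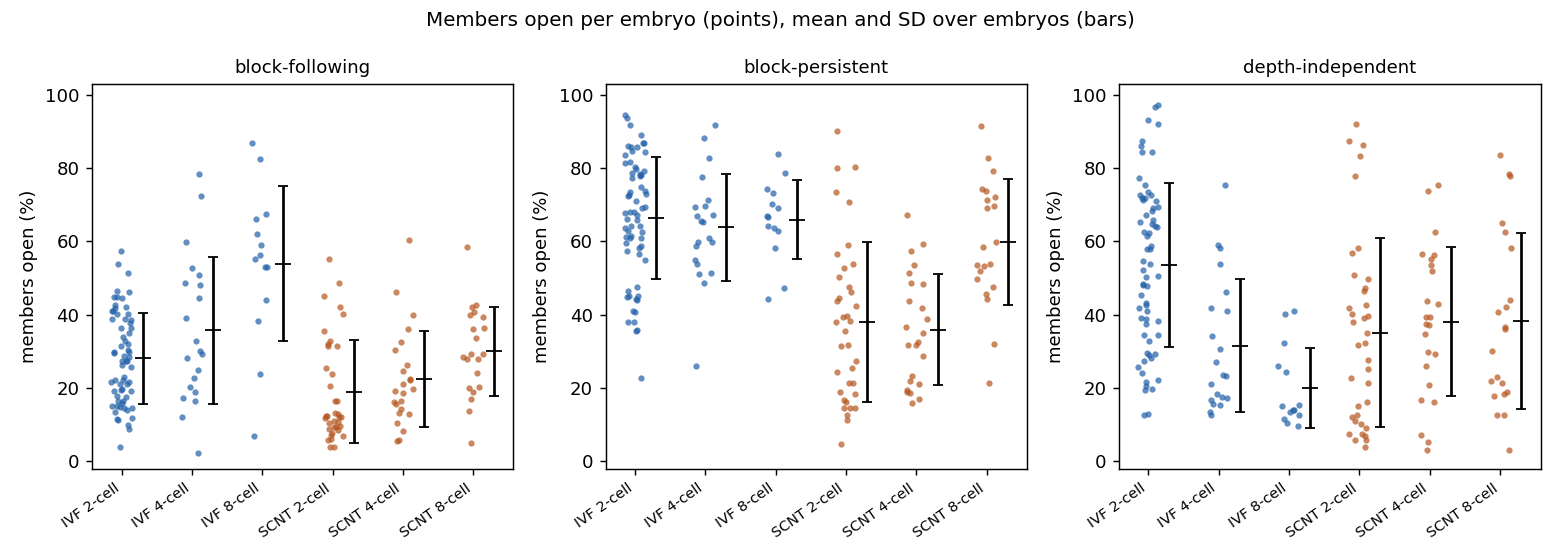
Share of members open (y axis, percent) per embryo, 1 point per embryo with blastomeres of 1000 or more calls, in 6 groups; bars give mean and SD. Depth-independent members fall from 53.5% in IVF 2-cell to 20.0% in IVF 8-cell embryos, block-following members are highest in IVF 8-cell embryos (53.9%), and SCNT 2- and 4-cell embryos have the fewest block-persistent members open (38% and 35.9%). Shares are not adjusted for depth, which differs between the groups.

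Whether the members as a whole took more or fewer calls than their depth predicts was asked per embryo, as log2 of observed over expected member calls. No comparison passed at these settings, while the differences at 2 cells and from 2 to 8 cells in SCNT passed under several others, such as blastomeres of 5000 or more calls (-0.205 and 0.338, permutation adjusted p = 0.0352 and 0.0237). SCNT and IVF differed by -0.06 at 2 cells (permutation test, 37 and 66 embryos, adjusted p = 0.527), by 0.14 at 4 cells (24 and 21 embryos, adjusted p = 0.335) and by 0.26 at 8 cells (21 and 14 embryos, adjusted p = 0.335). The difference of 8-cell from 2-cell embryos was -0.11 in IVF (adjusted p = 0.38) and 0.20 in SCNT embryos (adjusted p = 0.335), by the same two-sided permutation test with 100000 resamples.

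Single members were tested with a score test of calls per embryo, moderated with limma and bounded by an exact binomial test, adjusted over all 91058 regions that passed the filter; all 698 members passed it. For comparisons of 2 groups, an adjusted p marked limma-moderated rests on the larger of the moderated and the exact binomial p. It can therefore be the exact one. The largest number of changes lay between the 2-cell and 8-cell IVF embryos. There 21.8% of the members were more open at 8 cells, against 7.52% of all tested regions, and 22.8% were less open, against 2.22%.

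The rises were mostly among block-following members and the falls mostly among depth-independent ones. Of the block-following members, 52.3% rose and 0 fell. Of the depth-independent members, 0 rose and 85.1% fell, and of the block-persistent members 2 rose and 11 fell. These groups were formed after the values were seen, so the counts are a description. When members with a slope under 0.3 were picked in SCNT blastomeres only, 86.5% of those fell in IVF, and of the other members 28.8% rose and 2.09% fell. All members picked this way were also in the depth-independent group. The members themselves had been selected by openness over all blastomeres, IVF included. This pick is therefore not independent of the IVF values and describes them further. Single members were not retested after a selection made outside IVF.

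Among the falling members, V101328 (block 11) was open in 61.4% ± 38 of blastomeres per IVF 2-cell embryo (SD, n = 66; at least 1 open blastomere in 53 embryos) and in 7.38% ± 11.4 per IVF 8-cell embryo (n = 14; 5 embryos; limma-moderated adjusted p = 8.52e-06). V42505 (block 4) went from 52.3% ± 39.6 to 3.57% ± 10.3, with an open blastomere in 47 of 66 and in 2 of 14 embryos (limma-moderated adjusted p = 1.23e-05). V238251 (block 26) went from 53.8% to 8.23%, V11104 (block 1) from 56.1% to 13.4% and V215991 (block 25) from 56.1% to 14.3%. All 5 lie in different blocks and are depth-independent.

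Among the rising members, V149546, V149396 and V149977 all lie in block 16. V149546 was open in 12.9% ± 26.8 of blastomeres at 2 cells (14 of 66 embryos) and in 68% ± 32.4 at 8 cells (13 of 14 embryos; limma-moderated adjusted p = 2.71e-07). V149396 went from 11.4% to 61.9% and V149977 from 14.4% to 62.6%. V34248 (block 3) went from 14.4% to 59.4% and V76963 (block 7) from 15.2% to 62.3%.

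Without blastomeres that lack a block, which left 36 IVF 2-cell and 13 IVF 8-cell embryos and 57588 tested regions, 6 members rose (0.860%, against 0.547% of all regions), all block-following, and 20.9% of members fell, against 0.396%. Among these were 83.3% of the depth-independent members. The median estimate of the block-following members, a difference in log odds on the natural scale, was 1.12 there and 1.37 over all blastomeres, and 85.8% and 91.8% of their estimates were positive. The median of the depth-independent members was -3.27 there and -2.31 over all blastomeres. In blastomeres of 5000 to 20000 calls, 60 members rose (8.60%, against 1.52% of all regions) and 16.8% fell, against 0.349%. All IVF 8-cell embryos carry title prefix 15287, and only 3 IVF 2-cell embryos do. Within that prefix (14 against 3 embryos) 0 members rose and 0 fell with limma-moderated adjusted p, 12 members (1.72%) had an unadjusted p under 0.05 against 1.74% of all regions, and the estimate was lower at 8 cells for 91.4% of the depth-independent members. It was higher for 73.3% of the block-following and 54.6% of the block-persistent members, and for 63.8% of all regions. In that prefix a mean of 30.6% of block-following members were open at 2 cells (n = 3), 45% at 4 cells (n = 5) and 53.9% at 8 cells (n = 14). These shares were not adjusted for depth, which differed too: the median calls were 7118, 14946.5 and 14086.8. Stage and depth cannot be told apart in them. In the same prefix a mean of 41.7% of depth-independent members were open at 2 cells (n = 3, range 25.6% to 57.8%), 24.3% at 4 cells (n = 5) and 20.0% at 8 cells (n = 14).

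**Figure D4:**
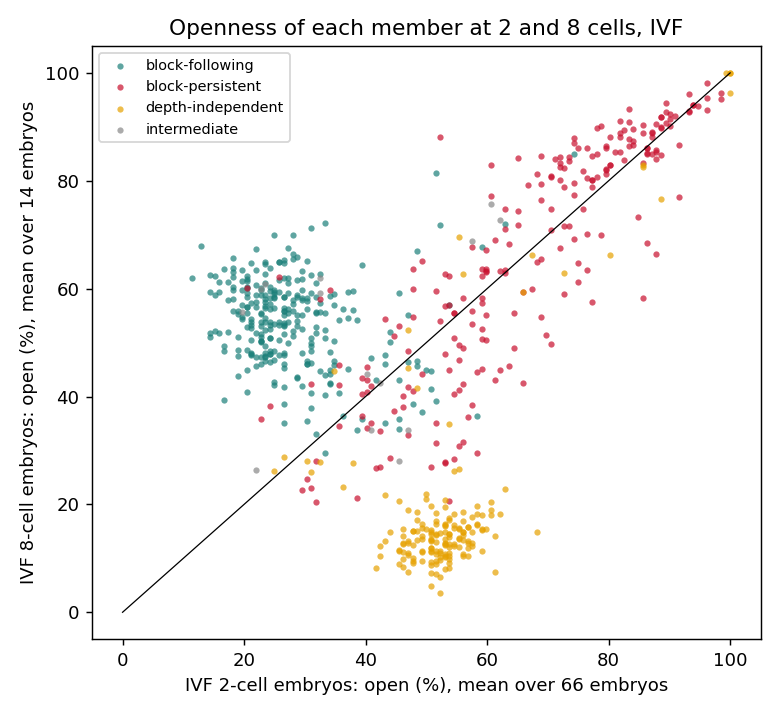
Each point is a member, plotted by its mean openness in 66 IVF 2-cell embryos (x axis) and 14 IVF 8-cell embryos (y axis), in percent of blastomeres; the line marks equal values. Depth-independent members lie below the line in a cloud around 50% and 13%, block-following members mostly above it.

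In SCNT embryos no member was called between 2 and 8 cells (40 and 21 embryos), against 0% of all regions. Of the members, 11.9% had an unadjusted p under 0.05, against 2.30% of all regions. The score test without the exact bound called 4 members higher at 8 cells (0.573%, against 0.0999% of all regions). The 2 members with the smallest p were V270849 (block 29), open in 4.05% ± 13.8 at 2 cells and 39.5% ± 33.7 at 8 cells, and V149638 (block 16), open in 5.41% ± 19.7 and 51.3% ± 35.1. The title prefixes pointed in opposite directions for depth-independent members: in prefix 15243 a mean of 43.2% were open at 2 cells (n = 27) and 29.9% at 8 cells (n = 12), in prefix 15244 13.0% (n = 10) and 49.5% (n = 9). What in the libraries goes with the prefix was not tested.

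Whether the change from 2 to 8 cells differed between SCNT and IVF was tested per region, with the same moderated score and no exact bound. The change was more positive in SCNT for 18 members (2.58%, against 0.359% of all regions) and more negative for 17 (2.44%, against 1.47%). The first set was led by V213463 (block 24), at 54.5% and 28.4% in IVF 2- and 8-cell embryos and 23% and 55.3% in SCNT ones (limma-moderated adjusted p = 0.000334). V137368 and V137367, direct neighbours in block 14, came next: V137368 stood at 58.3% and 29.5% in IVF and at 21.6% and 45.1% in SCNT embryos. In the second set, V149977 stood at 14.4% and 62.6% in IVF and at 13.5% and 20.9% in SCNT embryos (limma-moderated adjusted p = 0.00638), and V76963 at 15.2% and 62.3% and at 10.8% and 16.8%. Of the 35 members, 15 were block-persistent, 16 block-following and 3 depth-independent; the remaining 1 was intermediate. With each region's own slope with depth, the change was more positive in SCNT for 15.6% of the members, against 0.553% of all regions, and more negative for 23 members (3.30%, against 1.32%), and 85 of those with the more positive change were depth-independent. The SCNT change pools title prefixes that differ. Without own slopes, the median estimate of depth-independent members from 2 to 8 cells was -1.76 in prefix 15243 and 1.70 in prefix 15244. In IVF it was -2.31, where stage and prefix largely coincide. The difference between types was not tested by prefix.

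SCNT and IVF embryos were then compared at each stage. At 2 cells no member was called, against 0.0318% of all regions, with 9.74% of the members at an unadjusted p under 0.05 against 3.35% of all regions. The 2 smallest p-values belonged to V201136 (block 24), open in 28.4% ± 40.0 of blastomeres per SCNT embryo (n = 37) and 91.7% ± 20.7 per IVF embryo (n = 66), and to V270849, at 4.05% and 40.9%. At 4 cells no member was called either, against 0.0011%, with 34.8% of the members at an unadjusted p under 0.05 against 3.88% of all regions. Of those members, 58.8% were depth-independent. V38789 (block 3) and V137837 (block 14) had the smallest p, at 44.8% and 38.9% in SCNT and 26.2% and 24.2% in IVF embryos. At 2 cells the score test without the exact bound called 11 members up (1.58%, against 0.640% of all regions) and 28 down (4.01%, against 0.943%), all 28 block-persistent. At 4 cells it called 38 up (5.44%, against 0.212%) and 54 down (7.74%, against 0.762%), 53 of them block-persistent. SCNT 4-cell blastomeres had a median of 4330 calls against 8030 in IVF. With each region's own slope with depth, the score test alone called 1.00% of members up at 4 cells (against 0.114% of all regions) and 10.6% down (against 1.04%). The median estimate of the depth-independent members at 4 cells was 0.568 with own slopes and 1.86 without.

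At 8 cells, 19.1% of the members were more open in SCNT embryos, against 0.623% of all regions, and 0.716% (5 members) were less open, against 1.16%. Of those more open, 80.5% were depth-independent, 19 members were block-persistent and 4 block-following. SCNT 8-cell blastomeres had a median of 7061 calls against 13374 in IVF. With each region's own slope with depth, 11 members were more open (1.58%, against 0.111% of all regions), of which 1 was depth-independent. In blastomeres of 5000 to 20000 calls 4 members were (0.573%, against 0.0917%).

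V107404 (block 11) was open in 74.1% ± 21.7 of blastomeres per SCNT embryo (n = 21, open in all 21) and in 23.2% ± 17.4 per IVF embryo (n = 14, open in 12; limma-moderated adjusted p = 8.20e-05), and it remained called under each of the alternative settings run. V11516 (block 1) stood at 64.2% and 26.4% and likewise remained called. V195231 (block 23) stood at 48.1% and 20.4%, V188341 (block 23) at 51.4% and 27% and V144094 (block 15) at 63.0% and 27.9%; these 3 lost the call in blastomeres of 5000 to 20000 calls, and V144094 also with its own slope. In the other direction, V216182 (block 25) was open in 23.5% ± 18.5 of blastomeres per SCNT embryo and in 77.2% ± 25.8 per IVF embryo (limma-moderated adjusted p = 0.0144), and V68761 (block 7) in 18.8% and 67.7%. V248096, V260805 and V101245 were also lower, at 15.2%, 18.2% and 16.3% in SCNT against 59.2%, 65.3% and 69.6% in IVF embryos. All 5 lost the call when regions with as few as 5 calls were tested, and V216182 alone kept it in blastomeres of 5000 or more calls.

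Members were not spread evenly over the numbering. Blocks held from 0.893 members per 1000 regions (block 18) to 8.99 (block 10), with 7.77 in block 27 and 4.80 in block 26. Of the runs of consecutive numbers that the members formed, 93.8% were single regions. The longest run, V246236 to V246291 in block 27, held 56 members, and the next, V95703 to V95741 in block 10, held 39. A run from V227510 to V227521 in block 26 held 12 and one from V137365 to V137370 in block 14 held 6.

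The 2 longest runs behaved alike although they lie in different blocks. The stretch V246231 to V246291 had 60 members, 59 of them block-persistent and 1 intermediate, and the stretch V95703 to V95741 had 39, all block-persistent. They were open in 80.1% and 82.2% of cases where their own block was absent. Their mean openness, after each member's depth response, correlated at r = 0.934 over all blastomeres, which is a description; with the stretch from V137360 in block 14 the correlations were 0.162 and 0.173. By contrast, 16 members between V227440 and V227475 in block 26 were open in only 1.81% of cases where the block was absent, while V227510 to V227537, close by in the numbering, held 9 block-following, 9 block-persistent and 1 depth-independent member.

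Both long stretches were less open in early SCNT embryos. In the stretch from V246231, a mean of 78.1% ± 18.1 of members were open in IVF 2-cell embryos (n = 66, range 30.0% to 100%, median 83.3%) and 38.2% ± 27.1 in SCNT 2-cell embryos (n = 37, range 0% to 100%, median 30.8%). At 4 cells the means were 80% ± 17.3 (n = 21) and 38.2% ± 21.8 (n = 24), and at 8 cells 83.2% ± 15.2 (n = 14) and 70.7% ± 17.9 (n = 21). The stretch from V95703 stood at 76.8%, 80.1% and 82.7% in IVF and at 39.2%, 38.1% and 72.9% in SCNT embryos of 2, 4 and 8 cells. Depth went with this difference, and in blastomeres of 5000 to 20000 calls the stretch from V246231 stood at 78.3% (54 embryos) and 52.9% (18 embryos) at 2 cells, at 87.1% (18) and 55.8% (17) at 4 cells, and at 88.9% (12) and 78.8% (21) at 8 cells. The stretches were picked by their length, and no test was made of them.

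**Figure D5:**
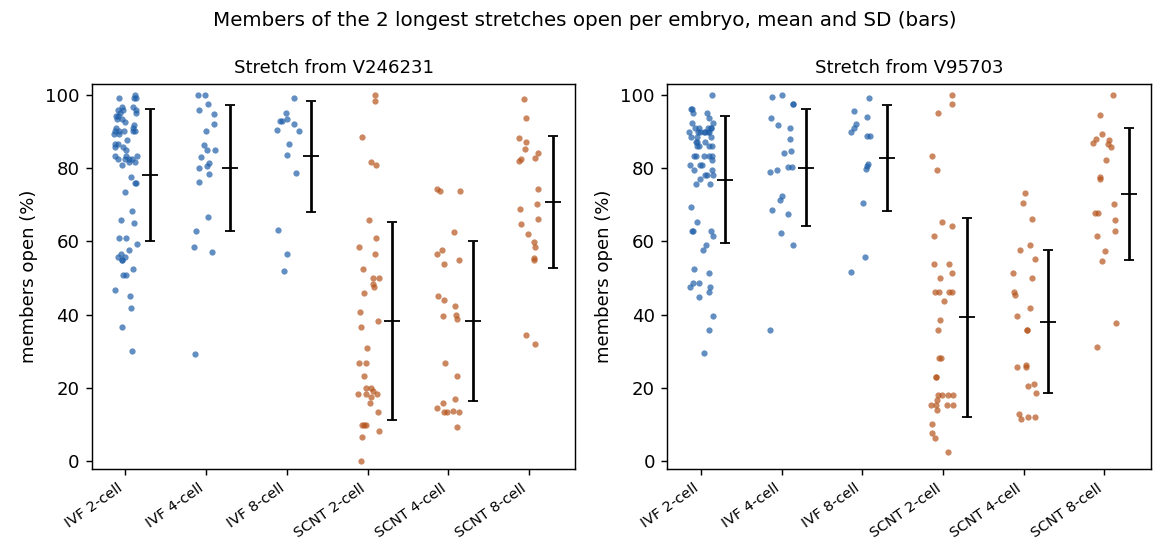
Share of the members of the 2 longest stretches that are open (y axis, percent) per embryo, 1 point per embryo, with mean and SD as bars, in 6 groups. SCNT 2-cell embryos spread down to 0% and 2.56% in the stretches and SCNT 4-cell embryos to 9.44% and 11.5%, both averaging 38.1% to 39.2%, while the 3 IVF groups average 76.8% to 83.2%.

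Blastomeres of 1 embryo resembled each other over the members more than blastomeres of different embryos did. The measure was the correlation across members of calls standardised for depth. Where a group spans title prefixes, the unrelated pairs include pairs across prefixes, while the permutation shuffled blastomeres within a prefix. In such groups the excess can include differences between prefixes, and the p-value does not test the excess as printed. In SCNT 8-cell embryos it averaged 0.168 for 422 sister pairs of 21 embryos and 0.0101 for unrelated pairs, an excess of 0.158 (two-sided permutation test within title prefix, adjusted p = 3e-05, from the smallest p that 100000 resamples can give). The excess was 0.0740 in IVF 8-cell (327 pairs, permutation adjusted p = 3e-05), 0.0615 in SCNT 4-cell (93 pairs, permutation adjusted p = 8e-05), 0.0452 in IVF 4-cell (94 pairs, permutation adjusted p = 0.00096) and 0.0405 in IVF 2-cell embryos (61 pairs, permutation adjusted p = 0.00464). In SCNT 2-cell embryos it was 0.0574, with 20 pairs (permutation adjusted p = 0.169). Sister pairs correlated positively in 370 of 422 cases in SCNT 8-cell and in 43 of 61 in IVF 2-cell embryos. The excess in IVF 2-cell embryos was 0.000217 when each member had its own slope with depth (permutation adjusted p = 0.98).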

How the data were processed

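Per the labels, single blastomeres were tagmented with Tn5 and sequenced; the submitters' processing notes name FastQC 0.10.1, Bowtie2 2.2.6 and bedtools, while no source used here gives the genome build, peak caller or settings. In the deposited table each region and blastomere has a call, open (1) or closed (0), and no other unit. An open call was modelled as 1 - exp(-blastomere factor x region factor), fitted to the totals of 2-, 4- and 8-cell blastomeres. The embryo was the replicate; blastomeres under 1000 calls were left out of embryo means. Single regions open in at least 10% of embryos with 1000 or more calls were tested by score tests moderated with limma 3.58.1 (R 4.3.3), bounded by exact binomial p-values, Benjamini-Hochberg adjusted, threshold 0.05. Tests were checked on simulated data. For single regions, all simulated calls scaled with depth as in the fitted model, and no block was left without calls. The check therefore does not cover members with a slope near 0 or blastomeres that lack a block. Embryos are separate samples per the labels, but nothing says how many cows or donor lines they came from. Members, classes and stretches were chosen with earlier results of these data known. Named members are the 20 most open, up to 5 per direction with the smallest p per comparison (2 where none passed), those nearest the threshold by count, and the longest runs. The stage difference between types, own-slope and 5000 to 20000 call settings were added after seeing the data. Python 3.11.15 and numpy 2.4.6 were used.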

Additional observations from a re-analysis of the deposited data

Results flagged for a closer look

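In 35 members the change from 2 to 8 cells differed between SCNT and IVF embryos by the test of the difference itself. The more positive change in SCNT was seen in 18 (2.58%, against 0.359% of all regions). The more negative one was seen in 17 (2.44%, against 1.47%). With each region's own slope with depth, 15.6% of the members had the more positive change, against 0.553% of all regions. The more negative one was seen in 23 members (3.30%, against 1.32%). The SCNT change pools title prefixes that ran in opposite directions for depth-independent members, and the difference was not tested by prefix. Among SCNT 5-cell embryos, 1 of 5 had 44.9% of all members open, above the next at 34.7%, a gap large for the range of the group. Of 16 combinations of a member group and a stage checked this way, chance gives about 1 in 20.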

How the results depend on the processing

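From 2 to 8 cells in IVF, within title prefix 15287 (14 against 3 embryos), 0 members rose and 0 fell, against 0% of all regions in both directions. Over all prefixes 6 members rose without blastomeres that lack a block (0.860%, against 0.547% of all regions). In blastomeres of 5000 to 20000 calls 60 rose (8.60%, against 1.52%). The count of falls stayed within 1.5 times its value in both settings. With the score test alone, 11 members were called up at 2 cells (1.58%, against 0.640% of all regions) and 28 down (4.01%, against 0.943%). At 4 cells 38 were up (5.44%, against 0.212%) and 54 down (7.74%, against 0.762%). At 8 cells 41 were down (5.87%, against 4.14%). From 2 to 8 cells in SCNT 4 were up (0.573%, against 0.0999%). With regions open in at least 25% of embryos, 11 were up at 4 cells (1.58%, against 0.166% of all regions) and 1 down (0.143%, against 0.0596%). At 8 cells 11 were down in that setting, a smaller share than over all regions (1.58%, against 3.13%). With depth from members alone, 85 were down at 8 cells (12.2%, against 8.40% of all regions). The members up at 8 cells numbered 8 with regions of at least 5 calls (1.15%, against 0.0188% of all regions), with 0 down (against 0.0397%). They numbered 23 in blastomeres from 5000 calls (3.30%, against 0.143%), with 1 down (0.143%, against 0.301%). With own slopes they numbered 11 (1.58%, against 0.111%), and in blastomeres of 5000 to 20000 calls 4 (0.573%, against 0.0917%). At 4 cells 1 was down with own slopes (0.143%, against 0.0011%). With own slopes the difference of changes between SCNT and IVF was called up in 15.6% of members, against 0.553% of all regions. It was called down in 23 members (3.30%, against 1.32%). Without own slopes 18 were up (2.58%, against 0.359%) and 17 down (2.44%, against 1.47%). Own slopes and the 5000 to 20000 window were chosen after seeing the data.

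The difference of SCNT from IVF in member calls (log2 of observed over expected) at 2 cells was 0.0281 with members at 25% of columns, -0.239 at 40% (permutation adjusted p = 0.0023), 0.00652 with members chosen outside the groups, 0.138 from 500 calls, -0.205 from 5000 calls (permutation adjusted p = 0.0352), -0.406 with own slopes (permutation adjusted p = 5e-05, the smallest they can give) and -0.272 in the window (permutation adjusted p = 0.0155). At 4 cells it was -0.206 with members at 40%, -0.0714 without blastomeres that lack a block, -0.160 with own slopes and -0.0493 in the window. As percent of calls in members, the difference was 0.670 percentage points at 2 cells and 1.21 at 8 cells (permutation adjusted p = 0.0102). From 2 to 8 cells it was 0.201 in IVF with members at 25%. In SCNT it passed the threshold at 0.356 with members at 40% (permutation adjusted p = 0.00705), 0.338 from 5000 calls (0.0237), 0.547 within prefix 15244 (0.00103, unadjusted), 0.452 with own slopes (0.00452) and 0.305 in the window (0.045), while it was -0.0386 percentage points and -0.0165 from 500 calls.

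The excess likeness of sister blastomeres in IVF 2-cell embryos was 0.0251 with each block scaled, 0.0181 from 5000 calls, -0.0106 over regions that are no members, 0.000217 with own slopes and -0.0325 with own slopes and no depth-independent members. In SCNT 2-cell embryos it passed the threshold at 0.0904 from 500 calls, 0.00397 over other regions, 0.0794 with own slopes and 0.0617 without depth-independent members. The cause of these changes was not tested. Of the named members' alternative values, 6 gained a call, 29 lost it and the others kept direction and call. No paired analysis was possible because each embryo belongs to 1 type and stage and its number only names it. Of the 6 groups compared, SCNT 2-cell blastomeres had the least depth, with a median of 3484 calls.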
